A study of Canis lupus familiaris with 6 samples.

Results

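ON bipolar cells of the dog retina were compared between retina that covered grafted pieces of human retinal organoids and graft-free retina. A barcode was taken as an ON bipolar cell when at least 0.3% of its UMIs (unique molecular identifiers, the counted RNA molecules), and at least 3 UMIs, came from TRPM1, PCP2, GNG13, ISL1 and GRM6, with at least 2 of these 5 genes detected. It also had to fall under 0.3% for the Müller glia genes RLBP1, GLUL and SLC1A3, under 0.2% for the cone genes PDE6H, GNAT2, PDE6C, GNGT2 and ARR3, and to hold 0 UMIs of GAD1 and GAD2. Of 82153 barcodes with at least 300 genes, 11579 met this rule. The members were thus chosen by the measured UMIs of these 15 genes, which are given below as a description, with no test.

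ON bipolar cells are second-order neurons that receive glutamate from photoreceptors and pass the onset of light to the inner retina. In darkness glutamate holds the receptor mGluR6 active, and its G protein keeps the channel TRPM1 closed. Light lowers glutamate, the regulators of G-protein signalling end the G-protein signal, and TRPM1 opens. Rod bipolar cells, which carry protein kinase C alpha (PRKCA), are the ON bipolar cells that serve rods. Neurons and glia next to inflamed or infected tissue can respond to interferon, which switches on antiviral and antigen-presentation genes.

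All dogs had normal retinas, were immunosuppressed, and received a subretinal injection of mechanically triturated organoid fragments made from the established human embryonic stem cell line WA09 with a CRX-tdTomato reporter. Retina was taken 3 days later. Each of 3 experiments (LG5, RC726 and RC724) gave 1 punch of 5 mm over the graft and 1 graft-free control punch, so the control retina shared the surgery and the drugs. The labels do not say whether each experiment was a separate dog, p-values measure the spread between experiments, and the sources used here do not give the quadrant of each punch, so place in the retina and graft cannot be told apart.

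The label ON bipolar was checked with 10 genes that the rule did not use. In CPM, the count of a gene scaled to a common total of summed UMIs per library, 9 of the 10 were higher in the ON bipolar barcodes than in all other barcodes of the same library in each of the 6 libraries. CABP5, a calcium-binding protein of bipolar cells, was 18.3 to 69.3 times as high. GPR179, which anchors the regulators of G-protein signalling at the dendrite tip, was 17.0 to 56.5 times as high, and PRKCA was 11.9 to 26.4 times as high. The exception was LRIT3, a synaptic protein of rods and cones that places TRPM1 on the bipolar dendrite, at 0.109 to 0.736 times the level of the other barcodes.

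**Figure D1:**
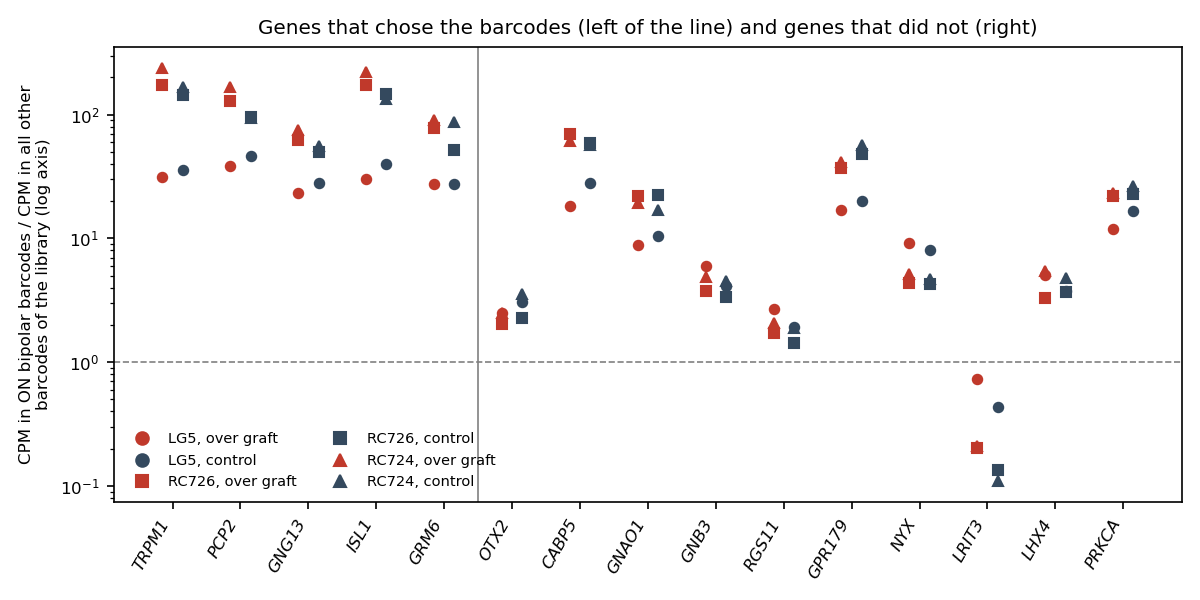
Ratio of the level in ON bipolar barcodes to that in all other barcodes (vertical, log axis) for the 5 genes that chose the barcodes and the 10 that did not (horizontal), with 1 point for each of the 6 libraries. Of the 10, all but LRIT3 lie above the dashed line of equal level, and the LG5 points (circles) are the lowest for TRPM1, PCP2, CABP5 and PRKCA.

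LG5 stood apart from RC726 and RC724. Its ON bipolar barcodes had a median of 807.5 UMIs over the graft and 1061 in control, against 6148 to 7717 in the other 4 libraries, and it held most of the ON bipolar barcodes. Summed ON bipolar UMIs were 4007366 to 8290378 per library. The share of UMIs from 13 rod markers in ON bipolar barcodes, divided by that share in all other barcodes of the library, was used as a yardstick for RNA from other cells. This ratio was 0.845 over the graft and 0.509 in control in LG5, 0.180 and 0.126 in RC726, with 0.220 and 0.188 in RC724, so it was higher over the graft in each experiment. At most 3 cell barcodes were shared by any 2 libraries.

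The share of barcodes taken as ON bipolar did not move one way. In LG5 it was 21.5% over the graft (95% Wilson interval 21.0 to 22.1) and 18.1% in control (17.5 to 18.7). In RC726 it was 6.24% (5.81 to 6.69) and 6.05% (5.60 to 6.53), and in RC724 7.72% (7.21 to 8.27) and 12.3% (11.6 to 13.0). The log2 ratios were 0.25, 0.04 and -0.67, with a mean of -0.13 and an SD of 0.49 over 3 pairs (exact paired sign-flip test, two-sided, p = 1, where 0.25 is the smallest possible). These intervals cover counting error alone. With the stricter rule for members given below, the log2 ratios were -0.06, 0.03 and -0.69. In barcodes with at least 1000 UMIs they were -0.38, 0.02 and -0.68. With a mitochondrial and doublet filter they were 0.30, -0.01 and -0.93, so the sign for LG5 depended on the setting. The mitochondrial limit of that filter was 20%. In LG5, 12 of 5146 ON bipolar barcodes exceeded it over the graft and 47 of 3267 in control. These counts were 49 of 722 and 43 of 612 in RC726, with 172 of 751 and 69 of 1081 in RC724. The larger share was thus over the graft in RC724 and in control in LG5. Just inside the 0.3% limit lay 24 to 226 barcodes per library and just outside it 13 to 180. CABP5 was at 210 to 733 CPM in the barcodes just inside and 191 to 535 CPM in those just outside, ranges that overlap.

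Of the genes of the mGluR6 cascade that did not choose the barcodes, 13 were tested and 0 were called by edgeR's quasi-likelihood test at an adjusted p of 0.05. The background is 0.130% of 13880 tested genes called in this comparison. At an unadjusted p under 0.05, 0 of the 13 were higher and 2 were lower, against a background of 5.29% and 5.09%. The median log2 change of the 13 was -0.28 against -0.003 over all genes tested. It was -0.03 without the LG5 pair, and it turned to 0.07 (11 genes tested) when free RNA was subtracted, a correction described with the called genes.

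Of the receptor and channel, GRM6 was at 308 and 345 CPM (over the graft, control) in LG5, 313 and 294 in RC726, with 288 and 247 in RC724. TRPM1 was at 1285 and 1970 CPM in LG5, 4979 and 4770 in RC726, with 6580 and 7322 in RC724. The libraries of the groups overlap for both genes, and TRPM1 was far lower in LG5 than elsewhere. These genes chose the barcodes.

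The G-protein subunits followed no single direction. GNAO1, the alpha subunit of the cascade, was at 1095 and 1193 CPM in LG5, 1429 and 1525 in RC726, with 1883 and 1685 in RC724, with a log2 change of -0.05 ± 0.17 (SE). GNB3, the beta subunit, had a log2 change of 0.13 ± 0.13, with 778 and 602, 358 and 345, and 418 and 399 CPM in the same order of experiments. For both genes the libraries of the groups overlap.

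None of the proteins that end the G-protein signal was called. RGS7, 1 of the 2 regulators of G-protein signalling that act on the alpha subunit here, changed by -0.30 ± 0.19, and RGS11, the other, by -0.02 ± 0.11. GNB5, their obligate partner, was at 216 and 293 CPM in LG5, 172 and 190 in RC726, with 152 and 168 in RC724, a log2 change of -0.28 ± 0.13. GPR179 was at 116 and 170, 113 and 124, and 123 and 142 CPM, a change of -0.33 ± 0.13. Both genes were lower over the graft in each experiment, and neither passed the adjusted test (edgeR adjusted p = 0.509 and 0.453). RGS7BP, a membrane anchor of RGS7, had the lowest estimate of the list, -0.57 ± 0.17.

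**Figure D2:**
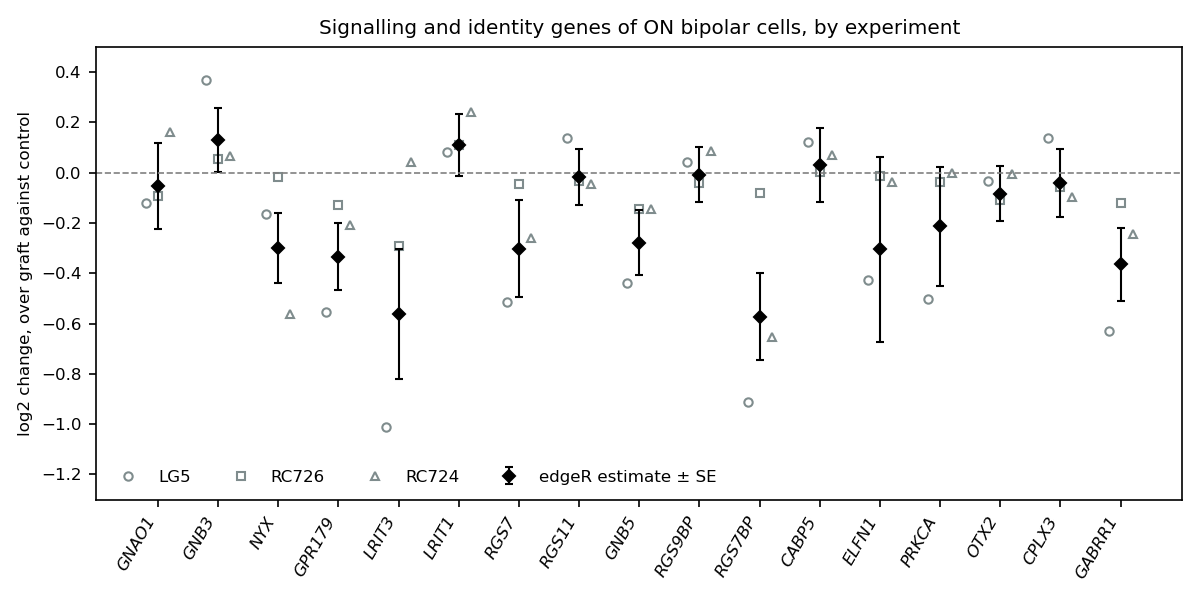
Log2 change over the graft (vertical) for the 13 tested cascade genes that did not choose the barcodes and for PRKCA, OTX2, CPLX3 and GABRR1 (horizontal), with open symbols for the 3 experiments and diamonds for the edgeR estimate with its SE. Most estimates lie within 0.5 of 0, GNB3 is the highest at 0.13, and the LG5 circles are often the lowest.

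Identity factors and the output synapse were likewise without a call, at a background of 0.130% of all tested genes. OTX2, a homeobox factor shared with photoreceptors, changed by -0.08 ± 0.11. Of 17 bipolar transcription factors tested, leaving out ISL1, 0 were called, with a median change of 0.08. At an unadjusted p under 0.05, 3 of the 17 were higher and 2 lower (background 5.29% and 5.09%). Of 25 genes of the ribbon synapse and release machinery, 0 were called, 0 were higher and 1 lower by that limit, and the median was -0.09. CPLX3, the complexin of ribbon synapses, was at 1012 and 919 CPM in LG5, 561 and 583 in RC726, with 582 and 622 in RC724.

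Receptors for inhibitory and excitatory input gave 0 calls of 23 tested (background 0.130%), with a median of 0.09. At an unadjusted p under 0.05, 1 was higher and 2 were lower. GABRR1, a subunit of the GABA-C receptor on bipolar axon terminals, was at 116 and 180, 174 and 189, and 181 and 215 CPM, lower over the graft in each experiment (-0.36 ± 0.14, edgeR adjusted p = 0.450). GRIA4, an AMPA receptor subunit, was at 18.5 and 12.5, 28.6 and 21.2, and 36.8 and 24.6 CPM, higher in each (0.50 ± 0.14). Neither passed the threshold.

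The rod bipolar kinase PRKCA was at 921 and 1303 CPM in LG5, 6056 and 6212 in RC726, with 8243 and 8258 in RC724. After each barcode was thinned to 1000 UMIs, PRKCA was detected in 46.7% and 65.1% of ON bipolar barcodes in LG5, 87.0% and 85.6% in RC726, with 90.4% and 94.1% in RC724. The mean difference was -6.90 percentage points (SD 10.3, 3 pairs, exact paired sign-flip test p = 0.5). LG5 sets most of it, since without that pair the mean was -1.16. In rods, thinned the same way, the gene was detected in 6.62% to 43.1% of barcodes. Thinning left out 3387 and 1390 shallower ON bipolar barcodes in LG5 and 9 to 22 in each other library, and unthinned the ON bipolar shares ran from 55.1% to 95.2%.

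Few genes passed the test over all genes in the main fit, and most of those that did were higher over the graft. Of 13880 genes, 18 were called: 16 rose (0.115% of those tested) and 2 fell (0.0144%), and each moved in the same direction in all 3 experiments. The risers included interferon-response genes (MX1, IRF7, IFGGB2, IFGGC1), lipid carriers (FABP5, APOC1), the chromosome proteins SMC4 and PCLAF, the glial filament GFAP, the surface protein THY1, VMO1, TENT5C and RGS6. The fallers were ALDH1A1 and PLA2R1. Without the LG5 pair 6 genes were called, 5 of them among the 18, and without the term for the experiment 0 were. The alternative settings, given under processing below, gave 0 to 534 calls. One added after seeing the data used the stricter rule for members given below and left out LG5. There 15 of 17 of these genes kept the call, and 88 genes were higher and 115 lower over all genes. In rods of the same libraries, defined below, 15 of the 16 risers were also called higher and the 2 fallers also lower. Over all genes tested in rods these shares were 7.38% and 7.27%.

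ALDH1A1, an enzyme that makes retinoic acid, was at 2.37 and 24.2 CPM in LG5, 0.592 and 14.98 in RC726, with 0.726 and 32.3 in RC724 (over the graft, control). All 3 libraries over the graft lay below all 3 controls, as for 1.28% of tested genes, and ALDH1A1 fell by 4.31 on the log2 scale (SE 0.34, edgeR adjusted p = 0.00429). PLA2R1, a receptor for secreted phospholipase A2, was at 10.6 and 54.4, 13.4 and 38.0, and 4.72 and 20.4 CPM, also without overlap. It fell by 2.02 (SE 0.21, adjusted p = 0.0152, or 0.151 without the LG5 pair).

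Among the interferon-response genes, MX1, a GTPase that blocks viral replication, was at 74.4 and 1.75 CPM in LG5, 8.09 and 0.399 in RC726, with 3.99 and 0.241 in RC724. Its control values rest on few UMIs, and it was not tested under the mitochondrial and doublet filter. All 3 libraries over the graft lay above all 3 controls, as for 1.46% of tested genes, and LG5 over the graft was far above the rest. MX1 rose by 4.85 ± 0.31 on the log2 scale (adjusted p = 0.00265 in edgeR, and 0.201 without the LG5 pair). IRF7, the factor that amplifies interferon transcription, was at 87.9 and 2.99, 5.33 and 0.799, and 7.26 and 1.45 CPM and rose by 3.60 ± 0.44 (adjusted p = 0.0336, or 0.370 without the LG5 pair).

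IFGGB2 had 253, 16 and 14 UMIs over the graft and 0 in each control, which makes it at least 101-fold higher against a floor of 3 UMIs over the control group. Most of these UMIs came from LG5, and without that pair the bound was 12-fold. IFGGC1 had 166, 26 and 17 UMIs over the graft and 0, 0 and 1 in control, a ratio of 225 with a 95% counting interval of 40.0 to 8941, or 54.0 (9.20 to 2184) without LG5. Neither was called without LG5 (edgeR adjusted p = 0.432 for IFGGB2 and 0.314 for IFGGC1), and IFGGB2 was not called by DESeq2 (adjusted p = 0.102). Under the stricter rule for members given below, both were called without LG5 (edgeR adjusted p = 0.00439 and 0.00625). Both symbols share a name stem and may share reads, so their separate levels are uncertain.

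FABP5, which carries fatty acids in the cytoplasm, was at 639 and 95.8 CPM in LG5, 43.4 and 8.39 in RC726, with 38.8 and 10.4 in RC724, and rose by 2.34 ± 0.16 (edgeR adjusted p = 0.00265). APOC1, a small apolipoprotein, was at 1820 and 624, 203 and 85.1, and 158 and 76.7 CPM and rose by 1.25 ± 0.14 (adjusted p = 0.0193, or 0.137 without RC726). VMO1 was at 1006 and 6.24, 44.2 and 2.996, and 43.9 and 0.482 CPM and rose by 6.23 ± 0.50. FABP5 and APOC1 overlap between the groups because both LG5 libraries were high, while each pair separates.

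SMC4, a condensin subunit, rose by 1.03 ± 0.13, PCLAF, a partner of the replication clamp, by 1.58 ± 0.20, and TENT5C, a poly(A) polymerase, by 3.72 ± 0.41. None of these was called without the LG5 pair (edgeR adjusted p = 0.370, 0.475 and 0.432). Outside the rule for named genes, MESP1, LOC100684769 and LOC477699 also rose, and they are named here because they complete the 18. GFAP was at 55.0 and 7.74 CPM in LG5, 4.94 and 0.399 in RC726, with 10.3 and 2.29 in RC724, and rose by 2.60 ± 0.25 (edgeR adjusted p without LG5 0.376). Summed over 9 Müller glia markers outside the rule, GFAP among them, ON bipolar barcodes held 4425 and 1427 CPM in LG5, 769 and 265 in RC726, with 391.8 and 1173 in RC724. Of 7 of them tested, GFAP alone was called. The part of Müller glia RNA in the GFAP value was not tested.

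THY1, a surface protein best known from ganglion cells, was at 95.4 and 7.24, 5.92 and 1.997, and 10.5 and 0.603 CPM and rose by 3.25 ± 0.38 (edgeR adjusted p without LG5 0.444). The 10 ganglion cell markers summed to 794 and 361 CPM in LG5, 328 and 272 in RC726, with 230 and 268 in RC724. Of these, POU4F2 had 0 UMIs in the ON bipolar barcodes of every library, while POU4F1 had UMIs in LG5 over the graft and in RC724 control. All 4 ganglion cell markers tested had positive estimates (median 0.62), and 2 were higher at an unadjusted p under 0.05 (background 5.29%). THY1 alone was called. The part of ganglion cell RNA in the THY1 value was not tested. The summed level of 12 microglia or macrophage markers was 474 and 176 CPM in LG5 and 35.0 to 45.1 CPM in the other 4 libraries. Markers of T or NK cells summed to at most 15.7 CPM in any library.

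**Figure D3:**
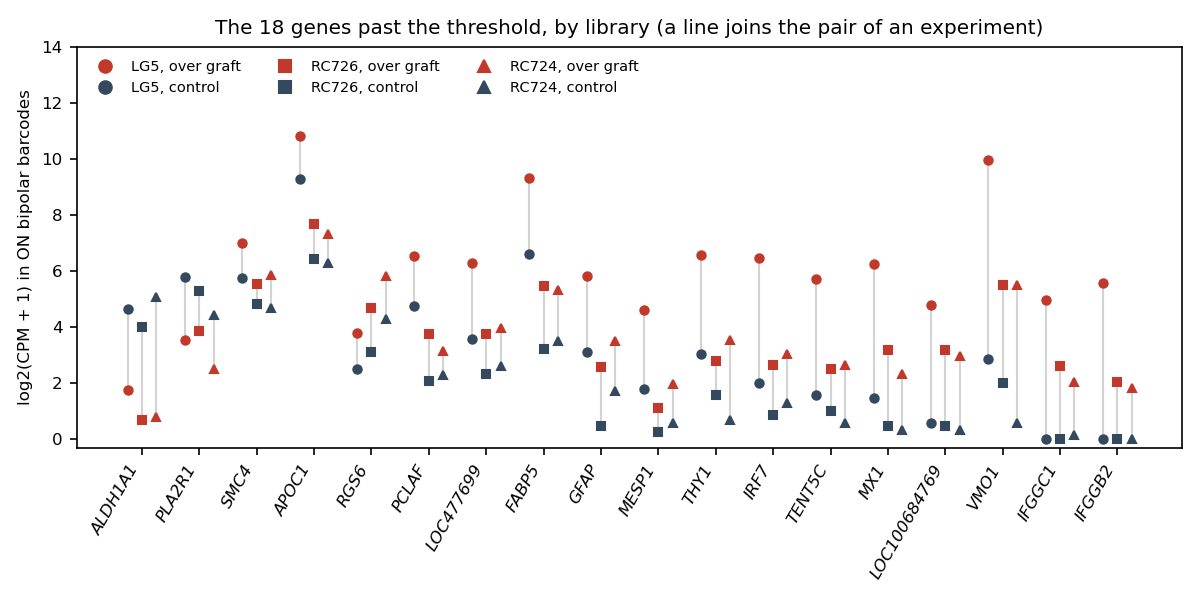
Level in ON bipolar barcodes as log2(CPM + 1) (vertical) of the 18 called genes (horizontal), with red symbols over the graft, dark symbols in control and a line joining the pair of each experiment. Every pair of a gene moves the same way, and the LG5 circles are the highest over the graft for all risers but RGS6.

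Nearly all of these genes were less abundant in ON bipolar barcodes than in the rest of the retina. Of the 18, 2 exceeded the other barcodes in any library. For 10 of the 16 risers, the ratio of ON bipolar to other barcodes was at or below that of the rod markers in all 3 libraries over the graft. MX1, for example, reached 0.740, 0.921 and 0.448 times the rod marker ratio in LG5, RC726 and RC724, and VMO1 0.894, 1.09 and 0.699 times. RGS6, IRF7 and LOC477699 were above it in all 3. The part of free RNA in the risers was not tested beyond subtracting a profile of the other barcodes scaled to the rod markers: 4 of the 18 genes then kept enough UMIs to be tested, and 0 genes were called. The estimates of these 4 were then -5.41 ± 0.54 for ALDH1A1, 4.51 ± 1.23 for RGS6, 3.47 ± 1.29 for LOC477699 and 2.58 ± 0.47 for IRF7, each in its former direction (edgeR adjusted p = 0.861 for each). Even the estimate for ALDH1A1, many SEs from 0, was not called. The 0 calls of this setting, here and elsewhere, therefore cannot decide the part of free RNA.

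**Figure D4:**
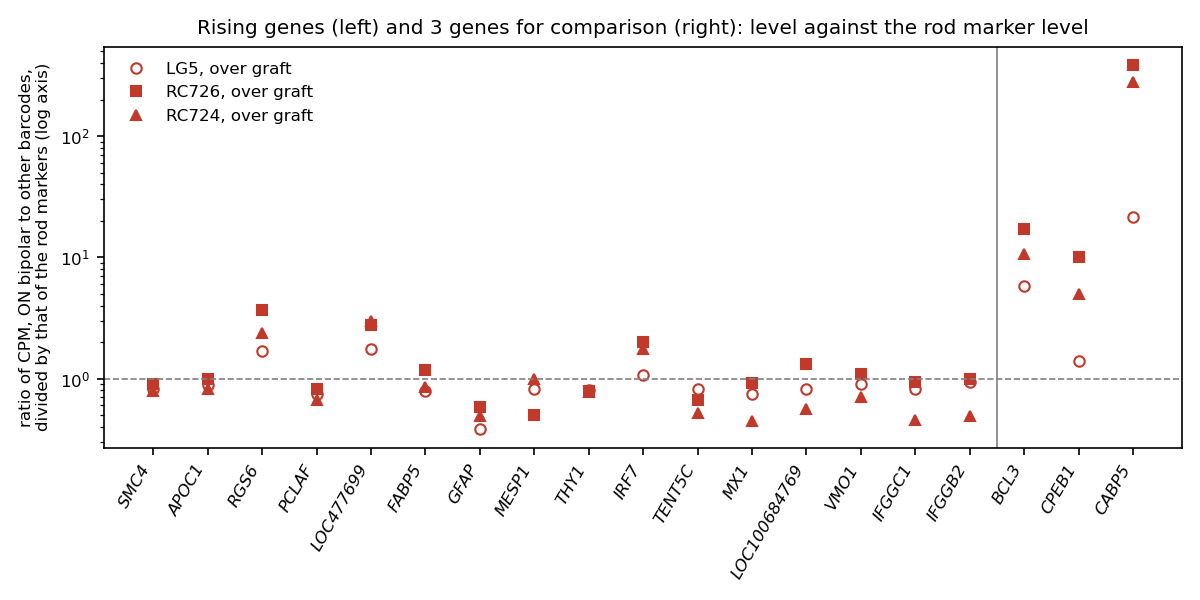
Ratio of the level in ON bipolar to that in other barcodes over the graft, divided by the same ratio of the 13 rod markers (vertical, log axis), for the 16 risers and for BCL3, CPEB1 and CABP5 (horizontal). At 1 (dashed line) a gene is as abundant relative to the other barcodes as rod RNA is: most risers lie at or under it, RGS6, IRF7 and LOC477699 above it, and CABP5 far above it.

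RGS6, a regulator of G-protein signalling that acts on inhibitory alpha subunits, did not share the pattern of the other risers. It was at 13.0 and 4.74 CPM in LG5, 24.9 and 7.59 in RC726, with 55.1 and 18.3 in RC724 (71 and 19, 126 and 38, and 304 and 152 UMIs). Each pair separates by about the same factor, and RC724, not LG5, was the highest. RGS6 rose by 1.58 ± 0.16 on the log2 scale (edgeR adjusted p = 0.0152, and 0.0487 without the LG5 pair), but in barcodes with at least 1000 UMIs the adjusted p was 0.1004. In the other barcodes of the same libraries RGS6 was at 9.15 and 7.12, 37.3 and 44.4, and 106 and 130 CPM, higher over the graft in LG5 and lower in RC726 and RC724.

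Rods of the same libraries gave the yardstick for the ON bipolar values. Rods were 36657 barcodes with at least 0.5% of UMIs from the 13 rod markers, under the same limits for other classes and under 0.1% for the 5 ON bipolar genes. In them 2301 of 15706 genes were called (14.7%), 1159 higher (7.38%) and 1142 lower (7.27%). The classes come from the same libraries, so the change was compared in 1 model with a term for each library. In that model 475 of 16543 genes (2.87%) differed in their signed log2 change, which was lower in ON bipolar cells than in rods for 264 (1.60%) and higher for 211 (1.28%). This count ran from 28 to 1073 when an experiment was left out, and was 0 when the ON bipolar sums were corrected for free RNA. After that correction the difference was -3.67 ± 0.34 for CPEB1, -2.95 ± 0.35 for ZC3HAV1, -4.11 ± 1.12 for B2M, 5.25 ± 1.35 for RGS6 and -1.67 ± 0.46 for ISG15, the last alone being smaller in size than the uncorrected value given below, with edgeR adjusted p-values of 0.638 to 0.644.

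Fewer interferon-response genes were called in ON bipolar barcodes than in rods, as held over all genes (0.115% and 7.38% higher over the graft). Of 26 tested, 4 rose in ON bipolar barcodes and 0 fell, with a median change of 1.40 (also 1.40 with IFGGB2 at its bound). In rods 32 of 40 rose and 1 fell, with a median of 3.13. Of 41 genes tested for the difference, the change was lower in ON bipolar barcodes for 12 and higher for 0 (1.60% and 1.28% of all genes). Without the LG5 pair, 0 of the 26 were called (6 of 13941 over all genes) and the median was 0.69. Without RC724 17 of 26 rose (260 of 14225 over all genes). With the stricter rule for members given below 10 of 21 did (0.951% of all genes). Under that rule and without LG5, 7 of 23 rose (88 of 13160 over all genes) and the median was 0.72. With free RNA subtracted 13 were tested, 0 were called and the median turned to -0.36. The list had been used on these libraries before, so its direction is not independent evidence.

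ISG15, a ubiquitin-like protein made under interferon, was at 331 and 12.7 CPM in LG5, 23.9 and 6.99 in RC726, with 12.7 and 6.996 in RC724. In rods it was at 972 and 12.9, 103 and 9.56, and 125 and 2.76 CPM. The estimates were 2.64 ± 0.61 in ON bipolar barcodes (adjusted p = 0.277) and 4.95 ± 0.47 in rods, and they differed by -2.38 ± 0.47 (edgeR adjusted p = 0.0346, and 0.111 without LG5).

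ZC3HAV1, an antiviral protein that targets viral RNA with CpG sites, stood at similar levels in both punches in ON bipolar barcodes while it rose in rods. In ON bipolar barcodes it was at 28.0 and 22.5 CPM in LG5, 39.3 and 36.0 in RC726, with 41.9 and 40.8 in RC724. In rods it was at 35.1 and 4.43, 23.9 and 4.28, and 35.5 and 4.70 CPM, so the control level was higher in ON bipolar barcodes than in rods in every experiment. The ON bipolar estimate was 0.12 ± 0.12 and the rod estimate 2.75 ± 0.17, a difference of -2.61 ± 0.18 (edgeR adjusted p = 0.00121).

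CPEB1, an RNA-binding protein that controls poly(A) tail length in neurons, showed the largest difference among the genes named by this rule. It was at 32.9 and 19.96 CPM in LG5, 68.5 and 64.7 in RC726, with 67.5 and 75.8 in RC724 in ON bipolar barcodes, and at 67.3 and 4.17, 74.2 and 9.75, and 165 and 12.2 CPM in rods. The difference was -3.35 ± 0.20 (edgeR adjusted p = 0.00103), and it held without any 1 experiment. CPLX3 gave a difference of -1.60 ± 0.15 (adjusted p = 0.00380), with a rod estimate of 1.57 ± 0.14 and an ON bipolar estimate of -0.04 ± 0.14.

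Antigen presentation showed 0 calls in ON bipolar barcodes, where 0.130% of all tested genes were called. Of 12 MHC class I and peptide-loading genes tested, the median change was 0.91, and 8 had an unadjusted p under 0.05, all higher (background 5.29%). With free RNA subtracted 7 were tested and the median turned to -0.15. Without RC724 5 of 12 rose (260 of 14225 over all genes), and under the stricter rule for members 5 of 12 did (0.951%). In rods 9 of 13 rose (7.38% of all genes), with a median of 2.37. B2M, the invariant chain of class I molecules, was at 93.9 and 24.5 CPM in LG5, 48.2 and 35.8 in RC726, with 20.5 and 18.7 in RC724 in ON bipolar barcodes. In rods B2M was at 106 and 9.64, 36.2 and 5.10, and 30.3 and 1.94 CPM, and the change differed by -2.42 ± 0.31 (edgeR adjusted p = 0.00934, or 0.0873 without RC726). Of 5 immunoproteasome genes, 0 were called in ON bipolar barcodes and 4 were higher at an unadjusted p under 0.05, with a median of 1.76. All 5 rose in rods.

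**Figure D5:**
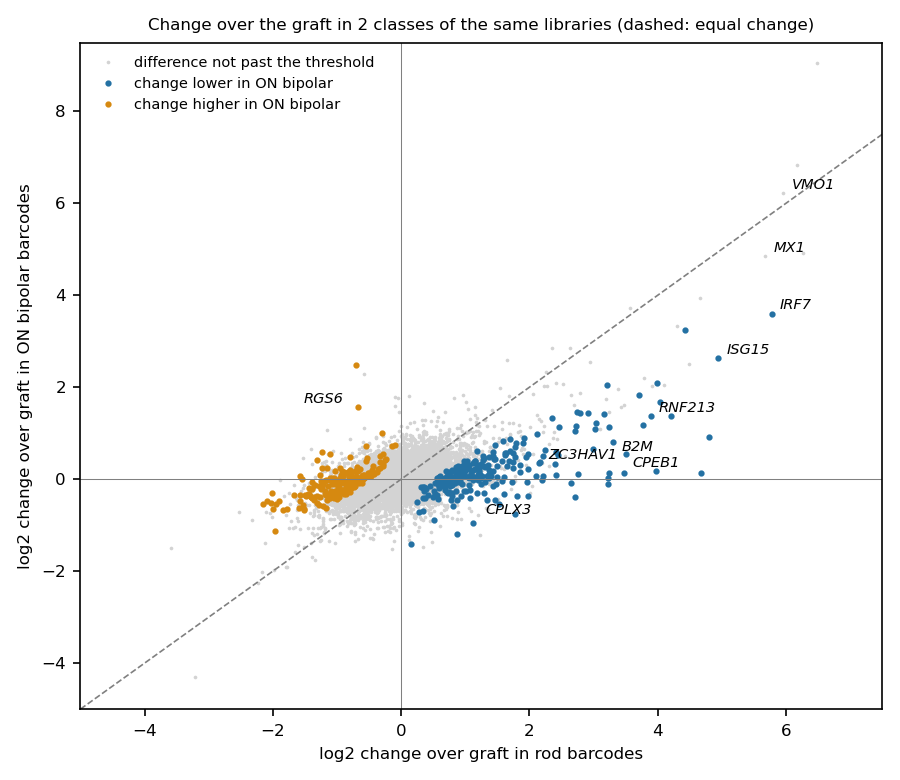
Log2 change over the graft in rod barcodes (horizontal) and in ON bipolar barcodes of the same libraries (vertical), 1 point a gene tested in both, with genes whose change differed in blue (lower in ON bipolar) or orange (higher). ZC3HAV1, CPEB1 and CPLX3 lie near 0 for ON bipolar and well above 0 for rods, and RGS6 is higher in ON bipolar barcodes and below 0 in rods.

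RGS6 lay on the other side. In rods it was at 2.20 and 3.52 CPM in LG5, 4.47 and 5.22 in RC726, with 7.62 and 15.6 in RC724, lower over the graft in each pair (-0.67 ± 0.24). The change in ON bipolar barcodes was 2.33 ± 0.24 higher (edgeR adjusted p = 0.00539), and the adjusted p stayed under 0.05 when any 1 experiment was left out.

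The interferon signal was spread over barcodes unevenly between experiments. Thinned to 1000 UMIs, 77.0% of ON bipolar barcodes in LG5 held a UMI of 52 interferon-response genes over the graft (95% Wilson interval 75.0 to 78.9) and 27.7% in control (25.7 to 29.8). In RC726 the shares were 27.3% (24.1 to 30.7) and 20.9% (17.8 to 24.3), and in RC724 29.5% (26.3 to 32.9) and 20.8% (18.4 to 23.3). Rods had 91.8% and 34.8% in LG5, 57.3% and 29.8% in RC726, with 81.1% and 33.0% in RC724. The mean difference was 21.5 points (SD 24.1) in ON bipolar barcodes and 44.2 points (SD 15.1) in rods, each with an exact paired sign-flip p of 0.25, the smallest that 3 pairs allow. Without LG5 the ON bipolar mean was 7.54 points. Unthinned, 64.6% and 29.6%, 74.5% and 72.2%, and 79.2% and 73.5% of ON bipolar barcodes held such a UMI. The thinned shares leave out 3387 and 1390 shallower ON bipolar barcodes of LG5. Over the graft the list, here with IFI6 (53 genes), summed to 2173 CPM in ON bipolar barcodes and 3138 in the other barcodes of LG5. These sums were 371 and 1380 CPM in RC726, with 362 and 1651 in RC724. The part of free RNA in the shares was not tested.

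Genes that ON bipolar barcodes hold well above the rest of the retina gave no call. Apart from the genes of the rule, 892 tested genes were more than 2 times as high as in the other barcodes in all 6 libraries. Of these, 0 were called, 24 were higher and 136 lower at an unadjusted p under 0.05 (background 5.29% and 5.09%), and the median change was -0.12, with a range of -1.57 to 1.45. BCL3, an inhibitor-like cofactor of NF-kB, had the highest estimate (1.45 ± 0.34, edgeR adjusted p = 0.290), at 149 and 21.5 CPM in LG5, 34.5 and 16.8 in RC726, with 30.5 and 20.1 in RC724.

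With a stricter rule for members (at least 0.6%, 5 UMIs and 3 of the 5 genes), 190 of 12939 genes were called (1.47%), 0.951% higher and 0.518% lower. Of the 892 genes, 870 were tested there and 14 were called (1.61%), 4 higher (0.460%) and 10 lower (1.15%). The total was near the background, while the higher share was below its 0.951% and the lower share above its 0.518%. The values of these 14 genes are given as a description only. The higher ones were BCL3 (adjusted p = 0.00977), NRN1L (0.00573), a relative of the neurite growth factor neuritin, TLE6 (0.00898), a corepressor of the Groucho family, and SCT (0.0222), the peptide hormone secretin. The named lower ones were PJVK (adjusted p = 0.00120), RNF217 (0.00738), DSC3 (0.0266) and B3GALT2 (0.0473), all from edgeR, and the other 6 have no gene name. These 8 genes were picked after their values were seen.

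PJVK, known from inherited deafness, had an estimate of -1.19 ± 0.18 under the looser rule, with means of 13.3 and 31.2 CPM (over the graft, control). NRN1L had means of 184 and 105 CPM and an estimate of 0.72 ± 0.15. Both moved in the same direction in all 3 experiments. SCT, also under the looser rule, was at 200 and 27.4 CPM in LG5, 36.5 and 23.6 in RC726, with 19.4 and 14.4 in RC724. Its groups overlap, and LG5 over the graft was far above the rest.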

How the data were processed

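The authors deposited filtered gene-by-barcode matrices of raw UMI counts from droplet 3' single-cell libraries, made with Cell Ranger 6.0.2 (LG5), 7.1.0 and 7.0.0 (RC726, over the graft and control) and 7.1.0 (RC724), per the file headers. Tissue was treated with 0.25% trypsin for 10 min, per the labels' protocols. The sources used here do not give the genome build, the intron handling or any separation of human reads. Counts of the member barcodes were summed per library and tested with edgeR 4.0.16 (R 4.3.3): filterByExpr, TMM, quasi-likelihood, experiment as a block, Benjamini-Hochberg at 0.05. The ± value is the SE, the size of the log2 change divided by the square root of F. The difference from rods was tested in 1 fit of 12 sums with library, class, class-by-experiment and class-by-graft terms. The planned comparison with OFF bipolar cells needed 20 barcodes in each library and was not run, since libraries held 13 to 26. Scripts were tested on simulated data.

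Pairing comes from the design: each experiment gave both punches, and the deviations of same-experiment libraries from their group means correlated at 0.946, 0.847 and 0.804. RC726 and RC724 also correlated with each other across the groups (0.729 and 0.763), while LG5 went against both, so these values mostly set LG5 apart. Members and gene lists were chosen with earlier results of these data known. Named genes are those past an adjusted p of 0.05 in one direction in 3 experiments with a symbol and at least 20 CPM in the higher group (up to 12 per direction), up to 5 called members of each list, and a fixed set of ON bipolar and interferon genes. The same CPM limit was used for genes named for the difference from rods, a rule written after values were seen. Alternatives were DESeq2 1.42.0, RLE factors, no filter, no block, each experiment left out, other limits for members, a filter on mitochondrial share and Scrublet score, and subtraction of free RNA. No doublets were removed otherwise, because Scrublet's own threshold called at most 0.0228% of barcodes. That threshold does not show that doublets were rare. Of ON bipolar barcodes, 6.65% to 11.6% per library lay above the score that marks the top 6% of all barcodes. Some genes of the fixed set and of the difference from rods are not reported here.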

Additional observations from a re-analysis of the deposited data

Results flagged for a closer look

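Each gene here is given because its change over the graft differed between ON bipolar cells and rods in the test of the difference itself (edgeR, log2 scale, change in ON bipolar minus change in rods). They are the 4 lowest and 4 highest of the genes reported here with a gene name and at least 20 CPM in ON bipolar barcodes, chosen after values were seen. On the low side were CPEB1 at -3.35 ± 0.20 (adjusted p = 0.00103), ZC3HAV1 at -2.61 ± 0.18 (0.00121), RNF213, a large interferon-induced ubiquitin ligase, at -2.56 ± 0.24 (0.00380), and B2M at -2.42 ± 0.31 (0.00934, or 0.0873 without RC726).

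On the high side, RGS6 was at 2.33 ± 0.24 (edgeR adjusted p = 0.00539). C1QB, a complement subunit made by microglia, was at 2.04 ± 0.30 (0.0165), and CH25H, cholesterol 25-hydroxylase, at 1.67 ± 0.31 (0.0287). Both rest on LG5: ON bipolar barcodes held 545 and 105 UMIs of C1QB in LG5 (over the graft, control) and 1 in all other libraries together, and 420 and 176 UMIs of CH25H in LG5 against 1 to 5 in each other library. In the other barcodes of LG5, C1QB was at 260 and 88.7 CPM. CLTRN, a membrane protein, was at 1.52 ± 0.28 (0.0287), and its adjusted p was 0.133 without LG5 and 0.0695 without RC726.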

How the results depend on the processing

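The count of 18 genes called in ON bipolar cells was 18 with RLE factors, 61 with DESeq2, 534 with no filter on low counts, 85 with the mitochondrial and doublet filter, 190 with the stricter rule for members and 11 with barcodes of at least 1000 UMIs. With no replicate block it was 0 (77 at an unadjusted p under 0.05), and with free RNA subtracted 0 (281). Leaving out an experiment gave 6 to 295 (6 without LG5, 51 without RC726, 295 without RC724). In settings added after seeing the data, free RNA subtracted without LG5 gave 0 (784) and stricter members without LG5 gave 203. Of these 203 genes, 88 were higher and 115 lower over the graft. All 18 kept their direction in every setting that gave a value, and with no pairing term 18 lost the call. Without LG5, 17 of them were tested (not MESP1), of which 12 lost the call and 5 kept it. With stricter members and without LG5, 17 were tested, of which 2 lost the call and 15 kept it. The 475 differences from rods became 638 with a rod limit of 1%, 0 without the class-by-experiment term (1235 at an unadjusted p under 0.05), 0 with free RNA subtracted from the ON bipolar sums (1240), and 28 to 1073 with an experiment left out (45 without LG5, 28 without RC726, 1073 without RC724). The cause of these shifts was not tested. Depth limited which genes could be tested: 13880 passed the filter on low counts, and 4 of the 18 called genes kept enough UMIs once free RNA was subtracted.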

Other observations

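Genes of axon growth and of glycolysis were not described above. Of 33 axon and dendrite growth genes tested in ON bipolar barcodes, 0 were called (background 0.130%) and the median log2 change was 0.17. At an unadjusted p under 0.05, 4 were higher and 0 lower (background 5.29% and 5.09%). ROBO1, a receptor for Slit guidance cues, was at 19.5 and 9.48 CPM in LG5 (over the graft, control), 54.1 and 23.0 in RC726, with 76.9 and 49.0 in RC724 (0.93 ± 0.15, edgeR adjusted p = 0.0904). NEFL, the light neurofilament, was at 164 and 64.4, 21.5 and 15.4, and 17.6 and 8.93 CPM (0.95 ± 0.16, adjusted p = 0.116). Both were higher over the graft in each experiment, and the groups overlap. Neither differed from rods past the threshold (adjusted p of the difference 0.153 and 0.141).

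Of 23 glycolysis genes, 0 were called, 5 were higher and 0 lower at an unadjusted p under 0.05 (background 5.29% and 5.09%), and the median was 0.15. HK2, a hexokinase, was at 90.6 and 22.5 CPM in LG5, 15.003 and 10.2 in RC726, with 18.1 and 7.72 in RC724 (1.30 ± 0.24). Of 43 nuclear subunits of the respiratory chain, 0 were called, 7 were higher and 0 lower at an unadjusted p under 0.05, with a median of 0.16. Of 72 cytosolic ribosome genes 0 were called, 0 were higher and 8 lower by that limit, with a median of 0.05. Of 21 cell death and survival genes, 0 were called, 0 were higher and 1 lower, with a median of 0.08. Over all tested genes 0.130% were called, so lists of this size would rarely hold a call. STAT3, the factor of the glial injury response, was at 138 and 64.9 CPM in LG5, 130 and 107 in RC726, with 165 and 170 in RC724.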
